A study of Arabidopsis thaliana with 4 samples.

Results

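The xyloglucan endotransglucosylase/hydrolase (XTH) family was followed through 4 RNA sequencing libraries made from hypocotyls, the embryonic stems, of dark-grown Arabidopsis thaliana seedlings. Members were chosen by the wording of the deposited gene descriptions, which had to hold "endoxyloglucan transferase", "xyloglucan endotransgl" or "xyloglucosyl transferase" in any case. Of the 23695 loci with a read in at least 1 library, 28 met this rule, and 23 of them were abundant enough to be compared. The wording used no measured value.

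The libraries were 1 each of arf7 with NAA, arf7 without it (mock), Col-0 with NAA and Col-0 mock. Col-0 is the wild type, and arf7 is a T-DNA mutant of ARF7, a transcription factor that switches on genes in response to auxin. All seedlings were 4 days old and had grown in darkness on 1/2 MS medium, with naphthalene acetic acid (NAA), a synthetic auxin, at 500 nM or with none. The labels name no arf7 allele and no number of seedlings behind a library, and each group had 1 library, so differences could not be checked against replicates and carry no p-value.

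Xyloglucan is a polysaccharide that coats and links cellulose fibrils in the primary wall of growing plant cells. XTH enzymes cut a xyloglucan chain and join the new end to another chain, and a few members instead release the end to water, which shortens the chain. Auxin makes hypocotyl cells elongate and starts lateral and adventitious roots, and wall-modifying enzymes act in both. The family is commonly divided into groups I, II and III by sequence, and the members here numbered 8, 15 and 5 in them.

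The libraries held, to the nearest 100, 7201800 reads in arf7 NAA, 6996900 in arf7 mock, 7174300 in Col-0 NAA and 7406800 in Col-0 mock. The Col-0 NAA library stood apart, with rank correlations (Spearman's rho over 17317 loci) of 0.847 to 0.881 with the others, against 0.968 to 0.981 among those, and it is the only library of its group. ARF7 (AT5G20730) had 1 read in arf7 NAA, 3 in arf7 mock, 8 in Col-0 NAA and 8 in Col-0 mock, over 1.14% to 2.03% of its length, so the targeted gene was hardly measured. Summed over 20 root hair, root meristem and endodermis marker genes, the level was 124 CPM (counts scaled for library size) in arf7 NAA and 52.2 in arf7 mock. The same sum was 1252 CPM in Col-0 NAA and 66.3 in Col-0 mock. The root hair markers PRP1 and EXPA7 had 0 reads in both mock libraries, as did RHD6, RSL4 and EXPA18 in arf7 mock.

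Part of the family lies in tandem. In the TAIR10.1 annotation of RefSeq, XTH24, XTH18 and XTH19 follow each other on the reverse strand of chromosome 4 with no annotated gene between them. Distances here use the deposited coordinates, and were 5215 and 1664 bases between these neighbours. XTH23 and XTH14 are 412 bases apart on the forward strand of the same chromosome. On chromosome 5, XTH12, XTH13, XTH25 and XTH22 sit on the reverse strand, with 1 other gene between XTH12 and XTH13, 838 bases between XTH13 and XTH25 and 708 between XTH25 and XTH22. Over the 378 pairs of members, the identity of the coding sequences had a median of 59.5%. It was highest for XTH12 and XTH13 (89.4%), followed by XTH18 and XTH19 (87.8%), XTH18 and XTH20 (85.9%) and XTH17 and XTH18 (85.6%), and 0 pairs reached 90%. Only uniquely assigned reads were counted, per the file headers, so reads from the stretches that such pairs share may be missing from their counts.

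XTH17, XTH18 and XTH19 are shown together because they are close relatives in sequence that behaved differently with NAA, as described further on. Given here are the 250 bases before the RefSeq start of each gene (RefSeq, TAIR10.1, 5′ to 3′ on the strand of the gene), at chr1:24256804-24257053 on the forward strand for XTH17, chr4:14827212-14827461 on the reverse strand for XTH18 and chr4:14830225-14830474 on the reverse strand for XTH19. Capitals mark a run of 73 bases that is identical in XTH17 and XTH18.
XTH17: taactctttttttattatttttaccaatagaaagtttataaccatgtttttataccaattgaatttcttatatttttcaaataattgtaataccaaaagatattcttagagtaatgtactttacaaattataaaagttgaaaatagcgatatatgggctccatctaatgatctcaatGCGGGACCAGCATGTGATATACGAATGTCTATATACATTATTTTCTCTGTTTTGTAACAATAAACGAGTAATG
XTH18: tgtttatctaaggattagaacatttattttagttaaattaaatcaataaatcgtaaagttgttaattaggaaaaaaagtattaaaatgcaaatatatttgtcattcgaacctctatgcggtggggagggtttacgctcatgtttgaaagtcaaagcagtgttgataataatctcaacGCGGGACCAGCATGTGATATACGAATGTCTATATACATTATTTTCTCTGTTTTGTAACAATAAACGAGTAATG
XTH19: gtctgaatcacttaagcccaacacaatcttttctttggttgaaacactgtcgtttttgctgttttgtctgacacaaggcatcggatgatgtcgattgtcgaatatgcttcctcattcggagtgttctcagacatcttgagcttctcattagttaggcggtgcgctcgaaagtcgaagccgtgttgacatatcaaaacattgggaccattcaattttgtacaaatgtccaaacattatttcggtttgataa

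The shared run reached the end of the window, directly before the gene start, in both XTH17 and XTH18. Bases past the window were not compared, so its full length is not known. Among the 378 pairs of member windows the second longest shared run was 14 bases and the median was 9 bases. Over the whole window the pair was 64.6% identical, against 59.1% for the next pair and a median of 51.9%. The core of the auxin response element, TGTC, was searched on both strands and lay in the windows of 20 of the 23 compared members (87.0%), against 75.3% of 22713 windows of the same length before annotated genes. Its longer form TGTCTC, which contains the core, was found in XTH6 alone among the compared members, against 10.9% of all windows. The other form, TGTCGG, was found in XTH20 alone, against 4.50% of all windows, and the G-box CACGTG in 0 of 23, against 7.22%. The core was in 7 of the 10 members that were higher with NAA in Col-0, in 7 of the 7 that were lower and in all 6 others.

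Levels between members were compared as the deposited RPKM, a read count divided by model length and library size. In Col-0 mock hypocotyls XTH24, also known as MERI5, was highest with 1559.6 RPKM, ahead of XTH4 with 1234 RPKM. XTH22, the touch-inducible gene TCH4, had 587 RPKM there, XTH18 had 477 and XTH30 had 206. In that library 10 of the 28 members had at least 100 RPKM and 16 had at least 10. The members thus differed widely in level in that library.

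**Figure D1:**
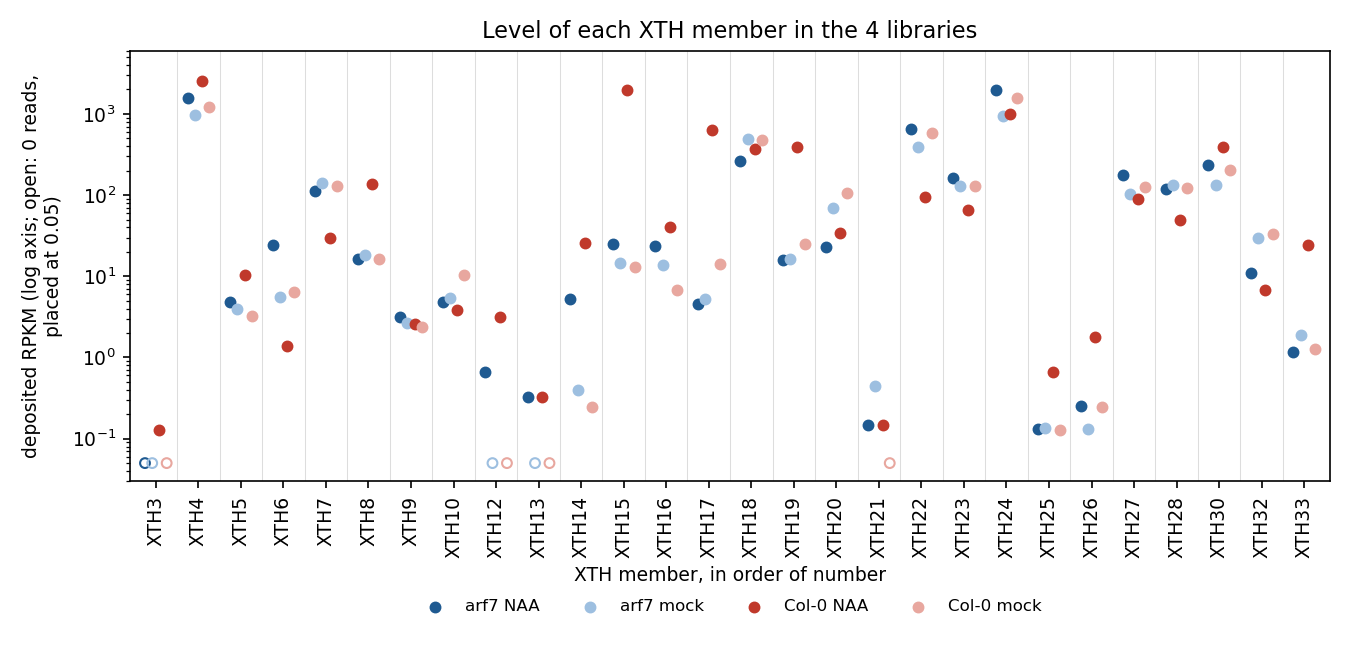
Deposited RPKM of the 28 XTH members (log axis) in arf7 NAA, arf7 mock, Col-0 NAA and Col-0 mock, 1 library each, in order of gene number, with open circles at 0.05 for members with 0 reads. XTH15 had 1992 RPKM in Col-0 NAA and lay between 13.2 and 25.3 RPKM in the other libraries, while XTH4 and XTH24 had at least 945 RPKM in each library.

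As a share of all counted reads, the family took 0.645% in arf7 NAA and 0.426% in arf7 mock, and 0.917% in Col-0 NAA and 0.567% in Col-0 mock. The summed level was 1.52 times as high with NAA as in mock in arf7 (1.4999 to 1.5443) and 1.69 times as high in Col-0 (1.6724 to 1.7139). Ranges in parentheses after a fold or ratio are 95% counting intervals, which compare 2 libraries and leave out any spread between plants. Without XTH15 and XTH4 the Col-0 ratio was 0.991 (0.9753 to 1.0073). In arf7 the ratio without them was 1.48 (1.4547 to 1.5059). The folds of XTH15 and XTH4 with NAA in Col-0, 158 and 2.18, were above that of the sum. Leaving them out thus had to lower the Col-0 ratio. In arf7 XTH24 gained the most reads with NAA (16946 against 7982), and it stayed in the sum. The ratios without XTH15 and XTH4 are therefore no like comparison of the genotypes.

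**Figure D2:**
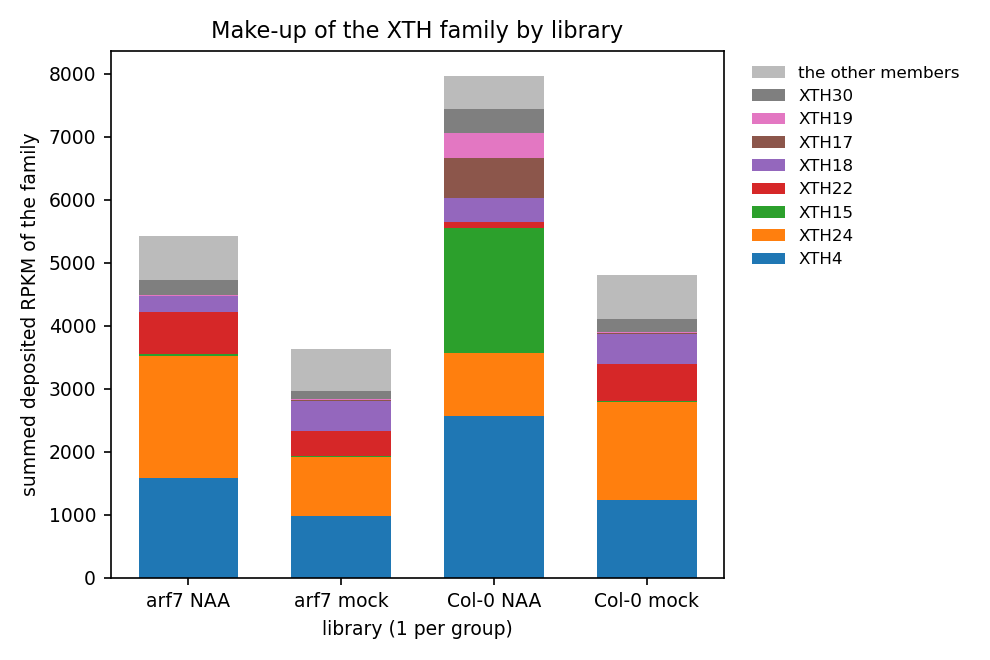
Summed deposited RPKM of the 28 members in each library, stacked by member. The 8 with the highest RPKM in a single library are named, and the rest are grouped. The sum was 5423 RPKM in arf7 NAA, 3627 in arf7 mock, 7968 in Col-0 NAA and 4811 in Col-0 mock, and XTH15 made up 25.0% of it in Col-0 NAA.

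The leading members of that sum differed between libraries. XTH24 made up 36.0% of the summed RPKM in arf7 NAA, followed by XTH4 with 29.1% and XTH22 with 12.2%. In arf7 mock XTH4 led with 26.9%, then XTH24 with 26.1% and XTH18 with 13.5%. In Col-0 NAA the order was XTH4 with 32.2%, XTH15 with 25.0% and XTH24 with 12.6%, and in Col-0 mock XTH24 with 32.4%, XTH4 with 25.6% and XTH22 with 12.2%. XTH15 was thus among the leaders in Col-0 NAA and in no other library.

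With NAA in Col-0, 10 of the 23 compared members were higher and 7 were lower, among them XTH15 at 158-fold higher and XTH22 at 5.96-fold lower. A member was counted where its fold, after scaling of the libraries, was at least 2 and its counting interval excluded 1. By this rule 15.2% of the 17317 compared loci were higher and 13.1% were lower, 28.2% in all. Of the 10 higher members, XTH12 and XTH14 reached the minimum level only through libraries with NAA, so they had to differ to be compared. The median log2 fold was 0.18 over the compared members and -0.01 over all compared loci. That median depended on the minimum level, since it was -0.27 at a mean of at least 5 CPM and 1.38 with no minimum. Over all 28 members, with no minimum level, 11 were higher and 7 lower.

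Group II held the largest increases. XTH15, also known as XTR7, had 15219 reads in Col-0 NAA against 104 in Col-0 mock (130.5 to 194). XTH17 had 4806 reads in Col-0 NAA against 111 in Col-0 mock, 46.8-fold higher (38.8 to 57.0). Its relative XTH19, which has been tied to the reunion of cut stems, had 3178 against 209, 16.4-fold higher (14.3 to 19.0). By contrast XTH18, which shares the upstream run with XTH17 and is the tandem neighbour of XTH19, had 2795 reads in Col-0 NAA against 3704 in Col-0 mock, 1.23-fold lower (1.17 to 1.29), short of the rule. The fourth of these relatives, XTH20, was 2.96-fold lower (2.58 to 3.40), with 275 reads against 879.

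Members known from root hairs were nearly absent from mock hypocotyls. XTH14 had 200 reads in Col-0 NAA against 2 in Col-0 mock, 108-fold higher (29.5 to 899). XTH12 had 24 reads against 0, at least 8.65-fold higher when the 0 is set at the floor of 3 counts. XTH26, below the minimum, had 14 reads against 2, a ratio of 7.57 (1.74 to 68.6), and XTH13, the closest relative of XTH12, had 2 against 0. Of 17 root markers compared, 15 were higher with NAA in Col-0, against 15.2% of all loci. Some, such as PRP1 with 0 reads in both mock libraries, reached the minimum level through the NAA libraries alone and had to differ. The 9 root hair markers summed to 291 CPM in Col-0 NAA and 5.86 CPM in Col-0 mock. In the same libraries the 7 endodermis markers summed to 909 CPM with NAA and 55.2 CPM in mock. Their part in the XTH differences was not tested, and in whole organs more cells of a type and more RNA per cell cannot be told apart.

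The other members that were higher with NAA in Col-0 came from all 3 groups. XTH33, a membrane-anchored member of group III, had 186 reads in Col-0 NAA against 10 in Col-0 mock, 20.1-fold higher (10.7 to 42.6). XTH8 had 1124 against 138, 8.81-fold higher (7.37 to 10.6), and XTH16, the closest relative of XTH15 at 80.8% coding identity, had 311 against 54, 6.23-fold higher (4.65 to 8.48). XTH5 was 3.37-fold higher (2.26 to 5.16), with 103 reads against 33. These 4 had at most 16.5 RPKM in Col-0 mock, while XTH4, which acts in xylem and secondary growth, was abundant in both libraries. XTH4 had 22321 reads with NAA against 11095 in mock, 2.18-fold higher (2.13 to 2.23).

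Among members that were lower with NAA in Col-0, XTH22 had 721 reads against 4643 (5.51 to 6.45). XTH32 had reads over only 40.9% to 54.5% of its model in any library. It had 57 reads in Col-0 NAA against 289 in Col-0 mock, 4.69-fold lower (3.52 to 6.35). XTH6 had 11 against 53, 4.46-fold lower (2.30 to 9.46), and XTH7 had 241 against 1102, 4.23-fold lower (3.68 to 4.88). XTH22 and XTH7 were above 100 RPKM in Col-0 mock, so abundant members were among those that were lower. The smallest decreases past the rule were those of XTH10, with 34 reads against 95 (2.58-fold, 1.73 to 3.94), and of XTH28, a gene of stamen filament growth, with 474 against 1223 (2.39-fold, 2.14 to 2.66).

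The remaining 6 compared members did not meet the rule with NAA in Col-0. XTH30, with 3611 reads in Col-0 NAA against 1978 in Col-0 mock, lay just under the fold of 2 at 1.97-fold (1.87 to 2.09). XTH23 had 504 against 1040, 1.91-fold lower (1.71 to 2.13), and XTH24 had 8667 against 13943, 1.49-fold lower (1.45 to 1.53). XTH27, which acts in tracheary elements of leaves, had 884 against 1286, XTH18 was described above, and XTH9 had 20 against 19. XTH9 had reads over only 8.48% to 8.76% of its model in any library, so it was measured on a small part of its length.

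With NAA in arf7 fewer members met the rule. XTH6, XTH14 and XTH24 were higher and XTH20 and XTH32 were lower, 3 and 2 of the 23, against 3.91% and 4.33% of all compared loci, 8.23% in all. XTH14 had 41 reads in arf7 NAA against 3 in arf7 mock, 13.4-fold higher (4.26 to 67.4). XTH6 had 196 against 43, 4.45-fold higher (3.19 to 6.35). XTH24 had 16946 against 7982, 2.07-fold higher (2.02 to 2.13). The decreases were 2.95-fold for XTH20 (187 reads against 539, 2.49 to 3.50) and 2.72-fold for XTH32 (93 against 247, 2.13 to 3.49).

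Most members that led in Col-0 had a fold under 2 in arf7. XTH15 had 194 reads in arf7 NAA against 109 in arf7 mock, 1.74-fold higher (1.37 to 2.22). XTH17 had 34 against 38, XTH19 had 129 against 128, XTH8 had 133 against 143 and XTH33 had 9 against 14. Intervals of these 4 folds included 1, and that of XTH33, 1.59-fold lower (0.642 to 4.17), also included 2, as did that of XTH15. XTH12 had 5 reads against 0, at least 1.63-fold higher, and XTH4 had 13809 against 8292, 1.63-fold higher (1.58 to 1.67). The root markers, 10 of 17 higher and 2 lower in arf7, summed for root hairs to 49.9 CPM in arf7 NAA and 4.14 CPM in arf7 mock, and for the endodermis to 54.9 CPM in arf7 NAA and 41.8 CPM in arf7 mock. Of all loci 3.91% were higher and 4.33% lower by the rule there, and some markers reached the minimum through the NAA libraries alone. The part of the markers in the arf7 values was not tested. XTH14, a member known from root hairs, met the rule in both genotypes. The median log2 fold in arf7 was 0.26 over the members and 0.00 over all loci.

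**Figure D3:**
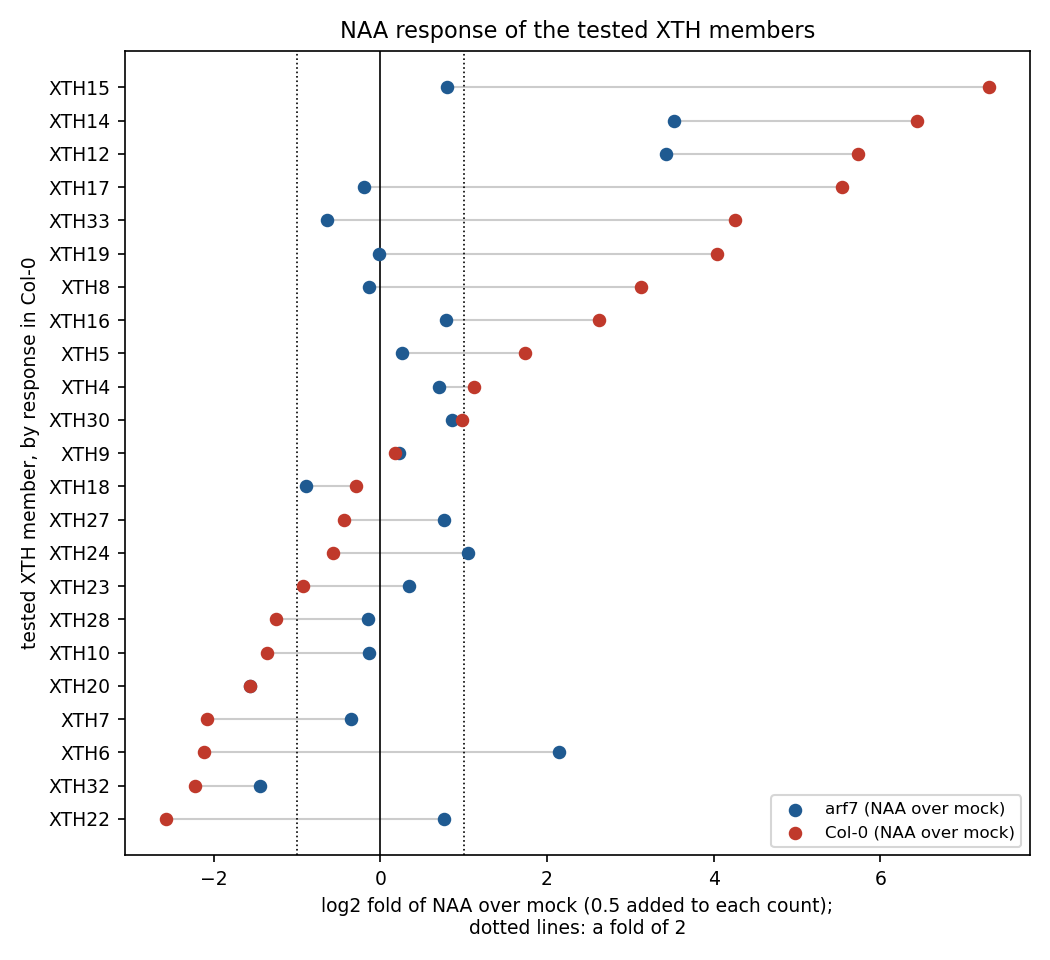
Log2 fold of NAA over mock (0.5 added to each count) for the 23 compared members, in arf7 and in Col-0, ordered by the Col-0 value, with dotted lines at a fold of 2. XTH15 had 0.80 in arf7 and 7.30 in Col-0, XTH20 had -1.56 in both, and XTH6 had 2.14 in arf7 and -2.11 in Col-0.

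The responses of the genotypes were set against each other as the difference of the log2 folds, arf7 minus Col-0. For a member that met the rule in Col-0, the arf7 response was counted as weaker if this difference was at least 1 in size, opposed the sign of the Col-0 response and had a 95% counting interval clear of 0. Of the 23 members 13 were weaker, 8 of those higher and 5 of those lower with NAA in Col-0, against 18.8% of all loci. Only a locus called in Col-0 can be counted, which held for 17 of the 23 members and 28.2% of all loci. The difference was -6.50 for XTH15 (-6.94 to -6.07), -5.73 for XTH17 (-6.45 to -5.02), -4.91 for XTH33 (-6.39 to -3.42), -4.06 for XTH19 (-4.46 to -3.65) and -3.27 for XTH8 (-3.70 to -2.85). All 5 were higher with NAA in Col-0.

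Smaller differences of the same direction were found for XTH14 (-2.90, -5.29 to -0.51), XTH16 (-1.83, -2.37 to -1.29) and XTH5 (-1.48, -2.30 to -0.65). Among the members that were lower in Col-0, the difference was 3.35 for XTH22 (3.21 to 3.48), 1.73 for XTH7 (1.49 to 1.96), 1.23 for XTH10 (0.41 to 2.05) and 1.10 for XTH28 (0.91 to 1.29). XTH22 was 1.71-fold higher with NAA in arf7 (1.63 to 1.79), with 5073 reads in arf7 NAA against 2903 in arf7 mock, and so lay on the other side of no change there, short of the rule. For XTH12, with 0 reads in both mock libraries, the interval of the difference ran from -8.11 to 3.51 and gave no answer.

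A response was called stronger where a member met the rule in arf7 and went at least 1 further there in its own direction, which held for XTH6 and XTH24, against 2.44% of all loci. XTH24 had a difference of 1.63 (1.57 to 1.68). With NAA it was 2.07-fold higher in arf7 and 1.49-fold lower in Col-0, short of the rule there, so the directions were opposite. XTH6 met the rule in opposite directions in the genotypes, the only member to do so, against 0.901% of all loci, and so counted as both weaker and stronger. Its difference was 4.25 (3.21 to 5.28). The rule was met in both genotypes in the same direction by XTH14, XTH20 and XTH32, which were 3 of the 17 members called in Col-0 and 3 of the 5 called in arf7. Of all compared loci 4.12% did so, which were 14.6% of the loci called in Col-0 and 50.0% of those called in arf7.

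Among the relatives XTH17 to XTH20, XTH20 had a difference of 0.00 with an interval of -0.31 to 0.31. XTH18 had -0.60 (-0.70 to -0.49), with 1989 reads in arf7 NAA against 3601 in arf7 mock, 1.85-fold lower (1.75 to 1.96). XTH30 had a difference of -0.12 (-0.25 to 0.01), with 2218 reads in arf7 NAA against 1194 in arf7 mock, 1.81-fold higher (1.69 to 1.95). XTH4 had -0.42 (-0.47 to -0.37). The difference for XTH32 was 0.78 (0.25 to 1.31). For XTH20, XTH18, XTH30 and XTH4 the whole interval thus lay within 1 of 0, counting error only.

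Without NAA few members met the rule between the genotypes. In arf7 mock against Col-0 mock, XTH17 and XTH10 were lower and 0 members were higher, 2 of 23 in all, against 4.63% of all loci. XTH17 had 38 reads in arf7 mock against 111 in Col-0 mock, 2.88-fold lower (1.98 to 4.28), and XTH10 had 46 against 95, 2.04-fold lower (1.42 to 2.96). With library totals in place of TMM scaling XTH10 no longer met the rule (log2 fold -0.96), and 1 member was higher and 1 lower. At a fold of 1.5, 1 was higher and 7 were lower. XTH16, with 104 reads against 54, was 1.95-fold higher (1.39 to 2.76), and XTH24, with 7982 against 13943, was 1.72-fold lower (1.68 to 1.77), both short of the rule. The median log2 fold was -0.08 over the members and 0.01 over all loci, and the summed level of the family was 0.719 times that of Col-0 (0.7087 to 0.7301).

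With NAA the genotypes differed widely. In arf7 NAA against Col-0 NAA, 5 members were higher and 8 were lower, against 10.8% and 14.1% of all loci, 24.9% in all. This comparison shares the Col-0 NAA library with the NAA comparison in Col-0, so the 2 sets of values are not independent of each other. XTH17 was 154-fold lower in arf7 (110.3 to 223), with 34 reads against 4806, and XTH15 was 85.6-fold lower (74.3 to 99.2), with 194 against 15219. XTH19 was 26.9-fold lower (22.5 to 32.3), XTH33 was 22.6-fold lower (11.6 to 50.1) and XTH8 was 9.23-fold lower (7.70 to 11.1). XTH14 with 41 reads against 200 was 5.33-fold lower (3.79 to 7.65), XTH12 with 5 against 24 was 5.24-fold lower (1.96 to 17.6) and XTH5 with 48 against 103 was 2.34-fold lower (1.65 to 3.37). All 8 were members that were higher with NAA in Col-0. The 15 root markers that met the rule in this comparison, of 17, were also lower in arf7, and their part in these values was not tested. Some of these markers had reached the minimum level through the NAA libraries alone.

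The members that were higher in arf7 NAA than in Col-0 NAA were XTH6, XTH22, XTH7, XTH23 and XTH28. XTH6 had 196 reads against 11, 16.3-fold higher (8.92 to 33.2), and XTH22 had 5073 against 721, 6.45-fold higher (5.96 to 6.98). XTH7 had 907 against 241, 3.45-fold higher (2.99 to 3.99). XTH23 had 1269 against 504, 2.31-fold higher (2.08 to 2.56), and XTH28 had 1153 against 474, 2.23-fold higher (2.00 to 2.48). XTH23, unlike the rest, had not met the rule with NAA in either genotype. The median log2 fold was -0.68 over the members and 0.01 over all loci.

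**Figure D4:**
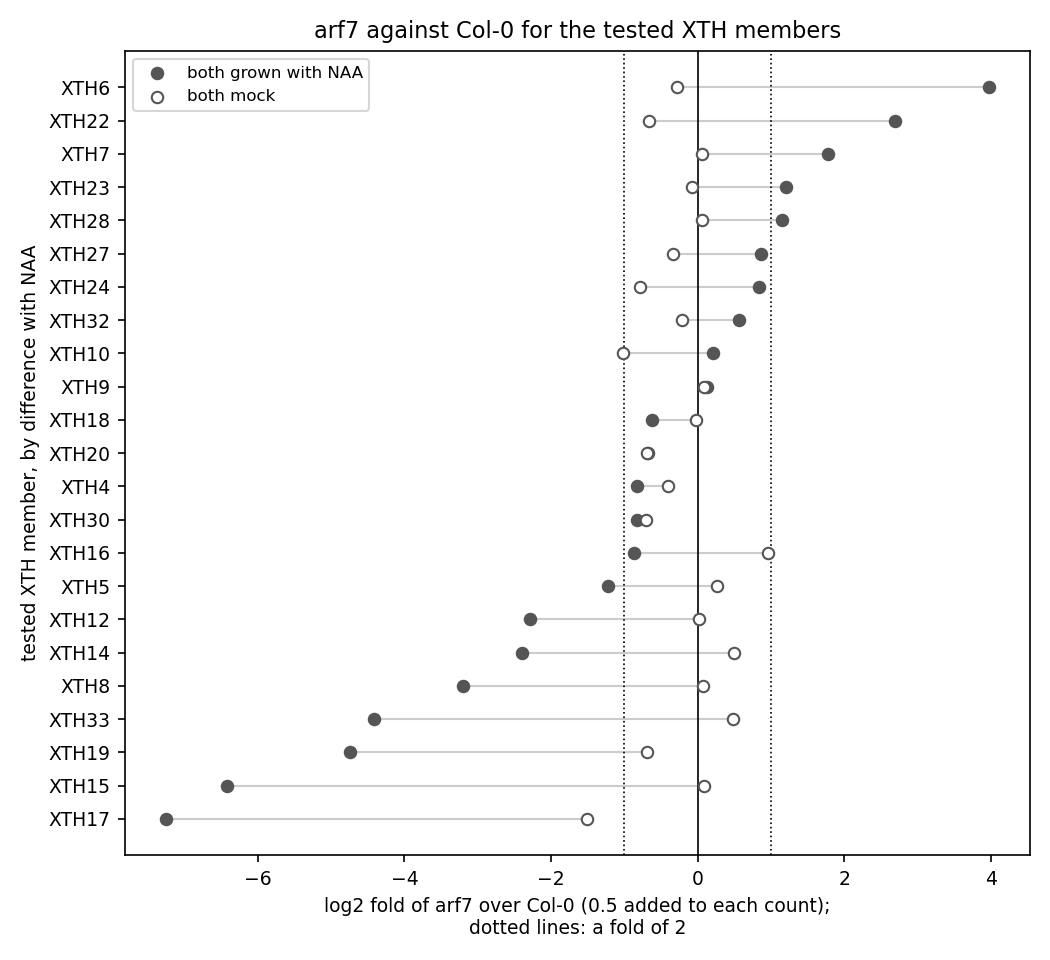
Log2 fold of arf7 over Col-0 (0.5 added to each count) for the 23 compared members, with both grown with NAA (filled) and both mock (open), ordered by the value with NAA, with dotted lines at a fold of 2. With NAA the values ran from -7.25 for XTH17 to 3.97 for XTH6, while in mock they ran from -1.51 for XTH17 to 0.96 for XTH16.

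Across all comparisons 19 of the 23 members met the rule at least once, against 36.7% of all compared loci, and XTH9, XTH18, XTH27 and XTH30 did not. Of the 5 members below the minimum level of a mean of 1 CPM, XTH3, XTH13, XTH21, XTH25 and XTH26, none had over 14 reads in a library. XTH3, which acts on cellulose as well as xyloglucan, had 1 read in Col-0 NAA and 0 in the others. XTH12 reached the minimum through Col-0 NAA alone and XTH14 through the NAA libraries of both genotypes, so both had to differ to be compared.

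In the authors' deposited table for NAA in Col-0, 17 members were listed, 10 higher and 7 lower, and each met the rule here in the same direction. In the authors' deposited table for NAA in arf7, 5 members were listed, 3 higher and 2 lower, again the ones named above. For arf7 against Col-0 with NAA the authors' deposited table listed 12 members, 5 higher and 7 lower, and of the 13 found here it lacked XTH12. Without NAA the authors' deposited table listed XTH16 as higher, at a log2 ratio of 1.03, and XTH17 as lower, at -1.46, and it did not list XTH10. The authors' ratios are of RPKM, which is scaled by library size. With library totals XTH10 was also short of the rule here, at a log2 fold of -0.96. Those tables come from the same libraries, so they are no independent check.

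The genes that make and trim xyloglucan were followed as a list of 19, 16 of synthesis and 3 of breakdown, and all 19 were compared. With NAA in Col-0, 4 were higher, against 15.2% of all loci, and 0 were lower, against 13.1%. The 4 were CSLC5 (2.33-fold, 2.11 to 2.57) and CSLC12 (4.25-fold, 2.33 to 8.27), of the family that makes the glucan backbone, the xylosyltransferase gene XXT3 (2.70-fold, 1.58 to 4.79) and the galactosidase gene BGAL10 (2.10-fold, 1.94 to 2.27). With NAA in arf7, 0 were higher and CSLC12 was lower, with 24 reads in arf7 NAA against 47 in arf7 mock, against 3.91% and 4.33% of all loci. In arf7 mock against Col-0 mock, CSLC12 was higher, with 47 reads against 14 (3.40-fold, 1.84 to 6.69), and the xylosyltransferase gene XXT1 was lower, with 12 against 28 (2.30-fold, 1.13 to 4.97), against 2.33% and 2.30% of all loci. In arf7 NAA against Col-0 NAA, 5 were lower, against 14.1% of all loci, and 0 were higher, against 10.8%. Among the 5 were CSLC5 (472 reads against 1308, 3.03-fold lower, 2.72 to 3.37) and the xyloglucan acetylation gene AXY4 (150 against 337, 2.45-fold lower, 2.02 to 2.99). The median log2 fold of the list with NAA was -0.18 in arf7 and 0.17 in Col-0.

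XTH15 had the largest response of the family, and the loci outside the family with the most similar pattern were sought among the 10347 loci whose mean was 10 CPM or more. The measure was the distance between log2 levels centred over the 4 libraries, so it rests on 4 points. Nearest was AT5G62280, a protein of unknown function, at a distance of 0.41, with 11 reads in arf7 NAA, 7 in arf7 mock, 1165 in Col-0 NAA and 5 in Col-0 mock. AT5G04120, of the phosphoglycerate mutase family, followed at 0.52, with 6, 5, 725 and 5 reads in that order of libraries. The cytochrome P450 gene CYP714A1 came next at 0.57, with 4, 2, 331 and 1 reads. As for XTH15, the Col-0 NAA library was far above the others in each, which the choice by similar pattern sets in advance.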

How the data were processed

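RNA was measured in 4 libraries, 1 per group, and groups were taken from the labels. Per the labels, cDNA was made with random primers, and the sequencer was a HiSeq or another machine. Per the file headers, the authors gave each transcript model its count of unique reads, the percent of its length covered and its RPKM, and models without a read are left out. The genome was TAIR10, as the submitters' processing notes name it. Which aligner and counter were used, and whether strand was, is not given in the sources used here. Log2 ratios of RPKM and an FDR (a corrected p-value) come from the authors' deposited tables of comparisons, whose 16 per-sample columns were left out.

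Counts were summed per locus and scaled with TMM (edgeR 4.0.16, R 4.3.3). TMM factors were 1.029 for arf7 NAA, 1.035 for arf7 mock, 0.947 for Col-0 NAA and 0.991 for Col-0 mock. Loci whose mean reached 1 CPM were compared, 17317 of 23695. A member was called higher or lower at a fold of at least 2 with a 95% exact conditional binomial (Clopper-Pearson) interval excluding 1, and a count of 0 was set at the floor of 3 counts, 0.405 to 0.429 CPM. Intervals and floors cover counting error only. Log2 folds had 0.5 added to each count. The interval of a difference of responses is a Wald interval. The rule was tested on simulated counts with counting error only, so that test does not cover the spread between plants. Members that met the rule in a comparison were named with counts in every library compared, and the rest by range, and the 3 loci nearest in pattern to the member with the largest response were added. Alternatives were DESeq2 1.42.0 size factors, library totals, other minimums, folds and added counts, transcript models taken singly, and only loci with 1 listed model. Sequences came from RefSeq TAIR10.1, where the coding sequence of all 28 members lay within the deposited coordinates. Windows end at the RefSeq gene start, which for XTH17, XTH18 and XTH19 lies upstream of the deposited start. No protein sequence was used here. The members and lists were chosen with earlier results of these data known.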

Additional observations from a re-analysis of the deposited data

Results flagged for a closer look

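XTH6 met the size rule in opposite directions with NAA in the 2 genotypes. It had 196 reads in arf7 NAA against 43 in arf7 mock, and 11 reads in Col-0 NAA against 53 in Col-0 mock. The difference of the log2 responses, arf7 minus Col-0, was 4.25 (3.21 to 5.28, counting error only). With 1 library per group this difference was not tested against the spread between plants.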

How the results depend on the processing

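Of the 37 calls of single members, all kept their direction and their side of the rule with DESeq2 size factors, with no minimum, with transcript models taken singly, with loci of 1 listed model and with a fold of 1.5, and so did the 35 that could be compared at a mean of at least 5 CPM. With library totals 36 did, and XTH10 in arf7 mock against Col-0 mock came to a log2 fold of -0.96, short of the rule. Several of these settings could hardly change a call. Each member has 1 listed model, so the settings on models and on the minimum kept its counts and changed only the scaling. Any call at a fold of 2 also passes a fold of 1.5. Library totals moved the median of all loci in arf7 NAA against Col-0 NAA to 0.128 and that of the members to -0.56, against -0.68, and gave 1 member higher and 1 lower in mock. With a fold of 1.5, 9 members were higher with NAA in arf7, 1 higher and 7 lower in arf7 mock against Col-0 mock, 13 lower in arf7 NAA against Col-0 NAA and 4 stronger in arf7. The median log2 fold of the members with NAA in Col-0 was 0.18, and it turned to -0.27 at 5 CPM and came to 1.38 with no minimum, as scarce members left or joined; that of arf7 mock against Col-0 mock was -0.19 at 5 CPM. No paired analysis was possible because each group had 1 library. Depth limits the scarce members, of which XTH3, XTH13, XTH21 and XTH25 had at most 5 reads in a library.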

Other observations

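RefSeq names 33 numbered XTH genes in this genome, of which 28 met the wording rule. XTH31 (AT3G44990) did not, because its deposited description spells the enzyme name with a hyphen. It was abundant, with 863 reads in arf7 NAA against 2722 in arf7 mock, 3.23-fold lower (2.99 to 3.49), and with 1369 in Col-0 NAA against 2183 in Col-0 mock, 1.47-fold lower (1.38 to 1.58). Its decrease with NAA was thus past a fold of 2 in arf7 and short of it in Col-0. XTH1, XTH2, XTH11 and XTH29 were not analysed here, since the tables used list no read for them.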
